A study of Oryza sativa with 12 samples.

Results

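The 6 genes described here encode seed storage proteins of rice: the glutelins GLUA-1, GLUA-2, GLUA-3, GLUB-5 and GLUD-1, and the prolamin PROLM25. They were matched by name, with earlier results of these data known. A symbol or synonym in the platform's gene annotation had to match, with a leading Os and letter case ignored. All 6 were found among 17905 genes with a probe set, a probe set being a group of probes that report 1 transcript or several close ones. They had 8 of the 57381 probe sets, since GLUA-2 and PROLM25 had 2 each, and each gene is led by its probe set of highest mean signal over the 12 arrays.

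Glutelins are the main storage proteins of the rice grain. They are made on the endoplasmic reticulum of the endosperm as precursors, carried to the protein storage vacuole and cut there by a vacuolar processing enzyme into an acidic and a basic chain. Prolamins are alcohol-soluble storage proteins that stay in protein bodies formed within the endoplasmic reticulum. Genes of both families are known for strong expression in the endosperm once the grain fills, and for little expression in leaves or in flowers before fertilization.

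The arrays held RNA of panicles, the flowering and grain-bearing branches of the plant, from the heat tolerant line 252 and the heat sensitive line 082. The 4 groups were line 252 at high temperature, line 252 at optimal temperature, line 082 at high temperature and line 082 at optimal temperature, with 3 biological replicates each per the labels. Plants of the high-temperature groups spent 5 days in a cycle of 37 °C days and 30 °C nights, and the optimal cycle had 30 °C days and 25 °C nights. Neither the developmental stage of the panicles nor whether the plants of a group shared a growth chamber is given in the labels.

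Signals are intensities on a linear scale from a 1-colour Affymetrix rice array, and the number of arrays limits the precision of each value. Replicates correlated at 0.948 to 0.977. The 6 high-temperature arrays had medians of 36.5 to 41.9 and the 6 optimal-temperature arrays medians of 55.2 to 68.4. The added bacterial Dap control had 3′/5′ ratios between 11.2 and 13.2 on the high-temperature arrays and between 1.58 and 1.98 on the others. The 18S ribosomal RNA signal was 980 to 1357 in line 252 at optimal temperature, 6901 to 11339 in both lines at high temperature, and 18318 to 25253 in line 082 at optimal temperature. The highest 18S signals therefore lay on the 3 arrays on which the storage genes were brightest, and the part of these array differences in the results below was not tested. All 14 floral organ identity genes listed as markers of panicle tissue lay above the median on every array of each group, and some of them also changed, with values given beside the other markers.

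Storage gene signals were high on 3 of the 12 arrays, those of line 082 at optimal temperature, and low on the other 9. GLUA-1 (LOC4327027) had signals of 75.4, 15.8 and 1.35 in line 252 at high temperature and 22.1, 1.42 and 21.2 in line 252 at optimal temperature. In line 082 it had 7.89, 0.981 and 13.2 at high temperature and 31875, 43372 and 40020 at optimal temperature. On 1 of the 3 arrays of line 082 at optimal temperature no probe set of the whole array was brighter than that of GLUA-1. The 9 other arrays lay below their own median except for replicate 1 of line 252 at high temperature, and among those 3 groups the signals overlapped. In RNA of panicles, fewer endosperm cells and less storage RNA per cell cannot be told apart.

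GLUA-2 (LOC4348563), led by a probe set whose suffix marks possible cross-hybridization, had 136, 46.9 and 49.9 in line 252 at high temperature and 148, 153 and 168 in line 252 at optimal temperature. Its signals in line 082 were 60.1, 47.3 and 54.4 at high temperature and 26479, 31587 and 34072 at optimal temperature. Of the 6 lead probe sets, GLUA-2 was the one above the array median on all 12 arrays. Its groups ran from line 082 at optimal temperature down to line 252 at optimal temperature without overlap, and the 2 high-temperature groups at the low end overlapped with each other.

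GLUA-3 (LOC4333164) had 64.1, 7.54 and 2.80 in line 252 at high temperature and 9.89, 28.8 and 51.5 in line 252 at optimal temperature. In line 082 its signals were 0.937, 13.7 and 12.6 at high temperature and 23390, 36574 and 33257 at optimal temperature. The 3 low groups overlapped, and the lowest array of line 082 at optimal temperature was 365 times the highest of the other 9.

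GLUB-5 (LOC4328968) belongs to the glutelin B subfamily. It had 156, 66.0 and 65.5 in line 252 at high temperature and 79.6, 90.5 and 111 in line 252 at optimal temperature, all 6 above the array medians. The signals in line 082 were 10.6, 21.2 and 27.7 at high temperature, all below the medians, and 26362, 30109 and 30653 at optimal temperature. The groups of line 252 overlapped with each other, and both lay above line 082 at high temperature.

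GLUD-1 (LOC4328877), the member of the glutelin D subfamily, had 13.4, 11.3 and 28.3 in line 252 at high temperature and 8.50, 6.63 and 3.37 in line 252 at optimal temperature. Line 082 had 0.656, 0.994 and 11.97 at high temperature and 20553, 23813 and 24271 at optimal temperature. None of the 9 arrays outside line 082 at optimal temperature reached its median.

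PROLM25 (LOC4342688), the prolamin, had 43.2, 6.68 and 19.5 in line 252 at high temperature and 2.84, 1.64 and 4.07 in line 252 at optimal temperature. The signals in line 082 were 5.00, 7.96 and 26.1 at high temperature and 16601, 26307 and 23575 at optimal temperature. Of the 9 low arrays 8 lay below their median, so no order is read among the low groups.

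**Figure D1:**
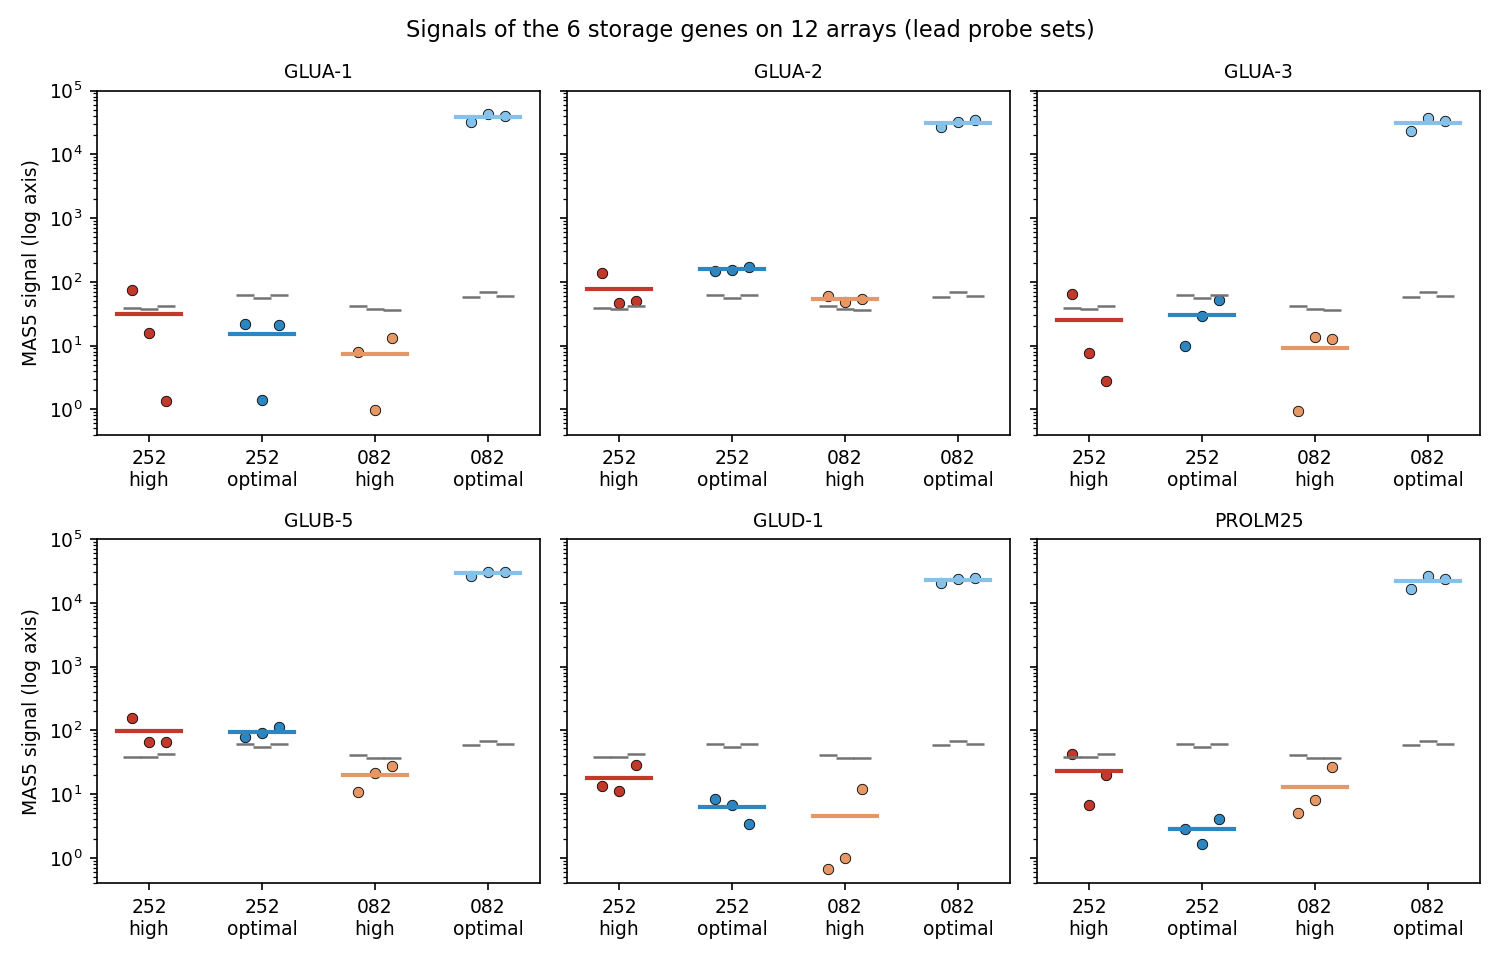
MAS5 signal (log axis) of the lead probe set of each of the 6 storage genes on the 12 arrays, by line and temperature; points are single arrays, coloured bars group means of 3 arrays and grey dashes the median signal of each array. The 3 arrays of line 082 at optimal temperature lie between 16601 and 43372, and the other 9 arrays lie at or under 168.

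All 3 arrays of line 082 at optimal temperature lay above the other 9 arrays for 6 of 6 lead probe sets, as for 13.5% of the 33610 probe sets tested. The gap was at least 100 times for all 6, and for 0.17% of probe sets, 57 in number. With the 9 arrays set to their own median wherever they lay below it, a setting added after seeing the data, it was so for all 6 and for 0.143% of probe sets. The ratio of the lowest bright array to the highest other was then 423 for GLUA-1, 365 for GLUA-3, at least 334 for GLUD-1, at least 270 for PROLM25, 169 for GLUB-5 and 157 for GLUA-2. Within the bright group the genes varied by different amounts between arrays. The coefficient of variation was 8.04% for GLUB-5 and 8.86% for GLUD-1, against 22.1% for GLUA-3 and 22.6% for PROLM25. Replicate 1 was the lowest of the 3 arrays for each lead probe set. In line 252 at high temperature, replicate 1 was the highest of its group for 5 of the 6, GLUD-1 being the exception.

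The 2 probe sets of PROLM25 had the same 3 bright arrays, and those of GLUA-2 did not. Both PROLM25 probe sets carry the suffix that marks possible cross-hybridization, so the share of PROLM25 itself in their signals is uncertain. The other PROLM25 probe set had 8.02, 13.9 and 7.52 in line 252 at high temperature and 37.6, 9.10 and 73.3 in line 252 at optimal temperature. In line 082 it had 1.72, 12.6 and 29.9 at high temperature and 16881, 24500 and 21676 at optimal temperature, so its bright arrays were those of the lead probe set. On the dim arrays the 2 differed, with line 252 at optimal temperature the lowest group for the lead and the highest of the 3 low groups for the other. The other GLUA-2 probe set had 771, 765 and 759 in line 252 at high temperature. It read 510, 407 and 544 on the optimal arrays of that line and 660, 691 and 655 in line 082 at high temperature. Its signals of 450, 282 and 227 in line 082 at optimal temperature were the lowest group, where the lead probe set was at its brightest.

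With line 082 at high against optimal temperature this second GLUA-2 probe set rose by a log2 change of 1.08 ± 0.21 (SE; limma, adjusted p = 9.43e-04), and the groups did not overlap, as for 26.7% of probe sets in that direction. The annotation gives both probe sets the same gene, and which one follows GLUA-2 RNA was not tested. By mean log2 signal the second probe set would lead in place of the first.

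**Figure D2:**
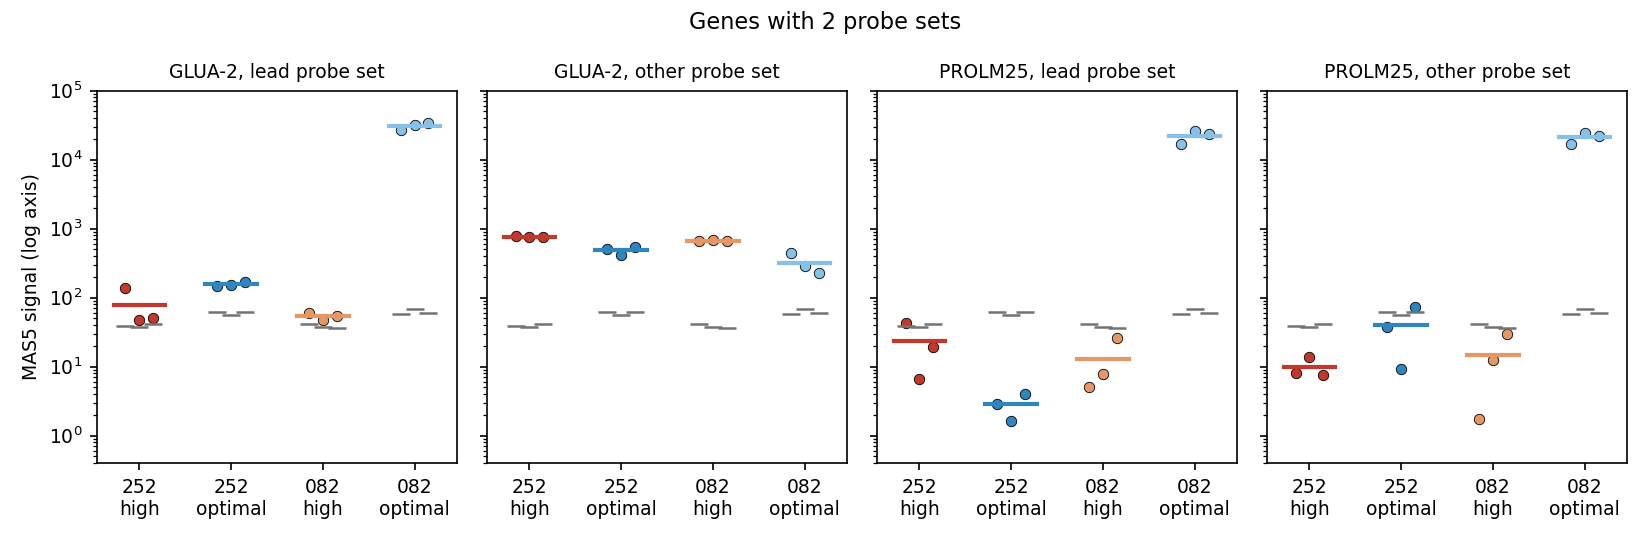
MAS5 signal (log axis) on the 12 arrays for the lead and the other probe set of GLUA-2 and of PROLM25; points are arrays, coloured bars group means of 3 arrays and grey dashes array medians. Both PROLM25 probe sets are high in line 082 at optimal temperature alone, while the other GLUA-2 probe set is lowest there.

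High temperature was set against optimal temperature within each line on log2(signal + 16), and a change was called at an adjusted p under 0.05 and a size of at least 1. In line 082 all 6 storage genes fell by their lead probe sets, while 21.9% of probe sets fell, 14.2% rose and 36.1% were called in all. Their changes had a median of −9.93 and ran from −10.71 to −8.77, against a median of −0.15 over all probe sets tested. GLUA-1 changed by −10.71 ± 0.50 (adjusted p = 1.61e-08), GLUA-3 by −10.30 ± 0.50 (2.22e-08) and GLUD-1 by −10.16 ± 0.27 (2.78e-10). GLUB-5 changed by −9.69 ± 0.29 (6.27e-10), PROLM25 by −9.62 ± 0.36 (2.48e-09) and GLUA-2 by −8.77 ± 0.28 (1.19e-09). The other PROLM25 probe set changed by −9.51 ± 0.43 (1.2e-08). None of the groups overlapped for the 6 genes, as for 34.1% of probe sets in that direction.

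The size of these falls rests on how dim signals are treated, since most of the high-temperature signals in line 082 lay below the array median. The change of GLUA-1 was −12.56 when 1 instead of 16 was added before taking logs, and −9.07 when 64 was. For GLUD-1 the values were −12.67 and −8.39. With each dim array set to its own median, used here as a floor because no detection calls were given, GLUA-1 was at least 996-fold lower at high temperature. On the same terms GLUA-3 was at least 798-fold lower, GLUB-5 at least 757-fold, GLUD-1 at least 596-fold and PROLM25 at least 569-fold. GLUA-2, above the median on all arrays, was 569-fold lower. All 6 genes passed the filter on dim probe sets, 4 of them through the arrays of line 082 at optimal temperature alone, and the counts of called genes were the same without the filter.

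In line 252 the storage genes were low at both temperatures. Of the 6, 1 fell, none rose and 5 did not pass, while 28.8% of probe sets were called, 9.42% higher and 19.4% lower. Their changes had a median of 0.14, against −0.20 over all probe sets tested. GLUA-2 was the gene that fell, to a mean signal of 77.7 ± 50.7 (SD, n = 3) at high temperature against 156.8 ± 10.5 at optimal temperature. Its log2 change was −1.01 ± 0.28 (adjusted p = 0.011), and the groups did not overlap, as for 34% of probe sets in that direction.

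The GLUA-2 call in line 252 lay at the edge of the fold minimum. It was lost after quantile normalization (−0.41, adjusted p = 0.27), after centring on the 75th percentile (−0.74, adjusted p = 0.0566), with a fit of the compared groups alone (adjusted p = 0.0556), with 64 added to the signals (−0.70) or with the mean over both probe sets (−0.18), and when replicate 2 (−0.78) or 3 (−0.82) of the high-temperature arrays or replicate 3 of the optimal ones (−0.96) was left out. Its other probe set had a change of 0.64 ± 0.21 (adjusted p = 0.026), the other way and under the fold minimum.

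PROLM25 had a mean signal of 23.2 ± 18.5 in line 252 at high temperature and 2.85 ± 1.22 at optimal temperature, all 3 optimal arrays lying lower. Its log2 change of 0.95 ± 0.36 had an adjusted p of 0.0479 and missed the fold minimum. It was called after quantile normalization (1.15), after centring on the 75th percentile (1.03), with 1 added to the signals (2.36) and without replicate 2 at high temperature (1.29). The other PROLM25 probe set had a change of −0.94 ± 0.43 (adjusted p = 0.0916). GLUD-1 had 0.58 ± 0.27 (adjusted p = 0.106), with groups that did not overlap, as for 23% of probe sets in that direction. All 6 arrays of line 252 were below their median for GLUD-1, and 5 of the 6 were for PROLM25. GLUA-1 (0.34 ± 0.50, adjusted p = 0.612), GLUA-3 (−0.38 ± 0.50, 0.568) and GLUB-5 (−0.06 ± 0.29, 0.888) had 95% intervals that covered 0, from −0.75 to 1.44 for GLUA-1, −1.47 to 0.71 for GLUA-3 and −0.68 to 0.57 for GLUB-5.

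The heat changes of the lines were then set against each other as 252 minus 082. The difference was positive and called for 6 of 6 storage genes, while 23.3% of probe sets were called, 11% positive and 12.3% negative. The median difference was 10.24 for the 6, against −0.08 over all probe sets tested. GLUA-1 had 11.05 ± 0.71 (adjusted p = 7.78e-07), GLUD-1 10.74 ± 0.39 (1.17e-08) and PROLM25 10.57 ± 0.51 (1.05e-07). GLUA-3 had 9.91 ± 0.71 (1.95e-06), GLUB-5 9.63 ± 0.41 (3.69e-08) and GLUA-2 7.77 ± 0.40 (1.3e-07). The other PROLM25 probe set had 8.56 ± 0.61 (1.81e-06), and the other GLUA-2 probe set had −0.44 ± 0.30 (adjusted p = 0.302).

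**Figure D3:**
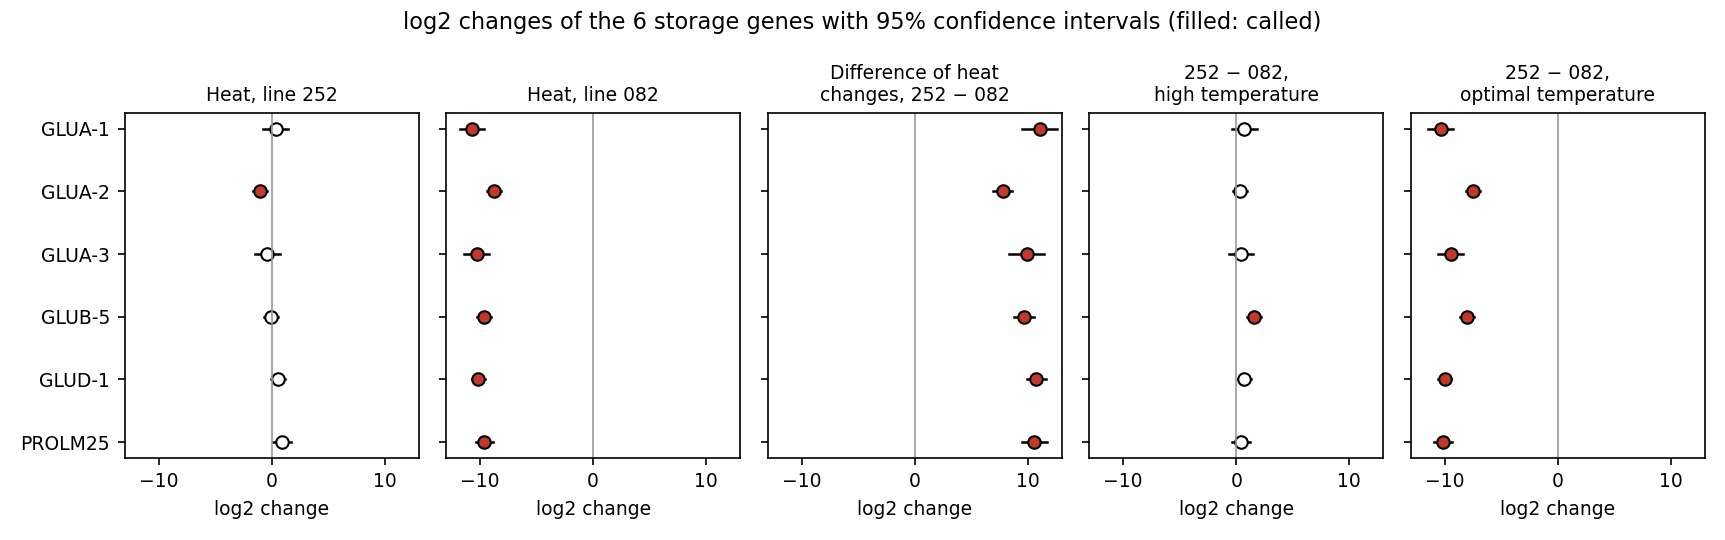
log2 changes of the 6 storage genes (horizontal axis) with 95% confidence intervals from limma for heat in line 252, heat in line 082, the difference of these heat changes, and line 252 minus line 082 at each temperature; filled points were called. The values for heat in line 082 run from −10.71 to −8.77 and those for line 252 from −1.01 to 0.95.

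At optimal temperature all 6 storage genes were lower in line 252 than in line 082 by their lead probe sets, while 12.1% of probe sets were lower, 15.3% higher and 27.4% called in all. The changes had a median of −9.75, against 0.11 over all probe sets tested. GLUA-1 had −10.35 ± 0.50 (adjusted p = 2.41e-08), PROLM25 −10.18 ± 0.36 (2.2e-09) and GLUD-1 −10.02 ± 0.27 (2.77e-10). GLUA-3 had −9.48 ± 0.50 (4.69e-08), GLUB-5 −8.05 ± 0.29 (2.2e-09) and GLUA-2 −7.47 ± 0.28 (2.92e-09). The other PROLM25 probe set had −8.72 ± 0.43 (2.59e-08), and the other GLUA-2 probe set had 0.63 ± 0.21 (0.0298), the other way and under the fold minimum. No groups overlapped for the 6 lead probe sets, as for 23.2% of probe sets in that direction. Heat in line 082, the difference of heat changes and the lines at optimal temperature share the same 3 bright arrays, so these 3 sets of values are not separate observations. GLUB-5 and GLUA-2, which lay above the array medians in line 252, were 312-fold and 195-fold lower there, and GLUA-1, dim in line 252, was at least 643-fold lower.

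At high temperature 1 of the 6 storage genes differed between the lines and 5 did not pass. GLUB-5 was higher in line 252, with 95.9 ± 52.2 (SD, n = 3) in line 252 and 19.8 ± 8.62 in line 082, a log2 change of 1.58 ± 0.29 (adjusted p = 0.01). Among all probe sets 0.622% were higher, 1.14% lower and 1.76% called in all, and its groups did not overlap, as for 10.6% of probe sets in that direction. Against the floor of the array median GLUB-5 was at least 2.29-fold higher in line 252. The call was lost with 64 added to the signals (0.89) and with a fit of the compared groups alone (adjusted p = 0.118). The other 5 had changes of 0.30 to 0.72 with adjusted p from 0.284 for GLUD-1 to 0.829 for GLUA-3, and the 95% interval was −0.40 to 1.79 for GLUA-1 and 0.13 to 1.32 for GLUD-1.

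**Figure D4:**
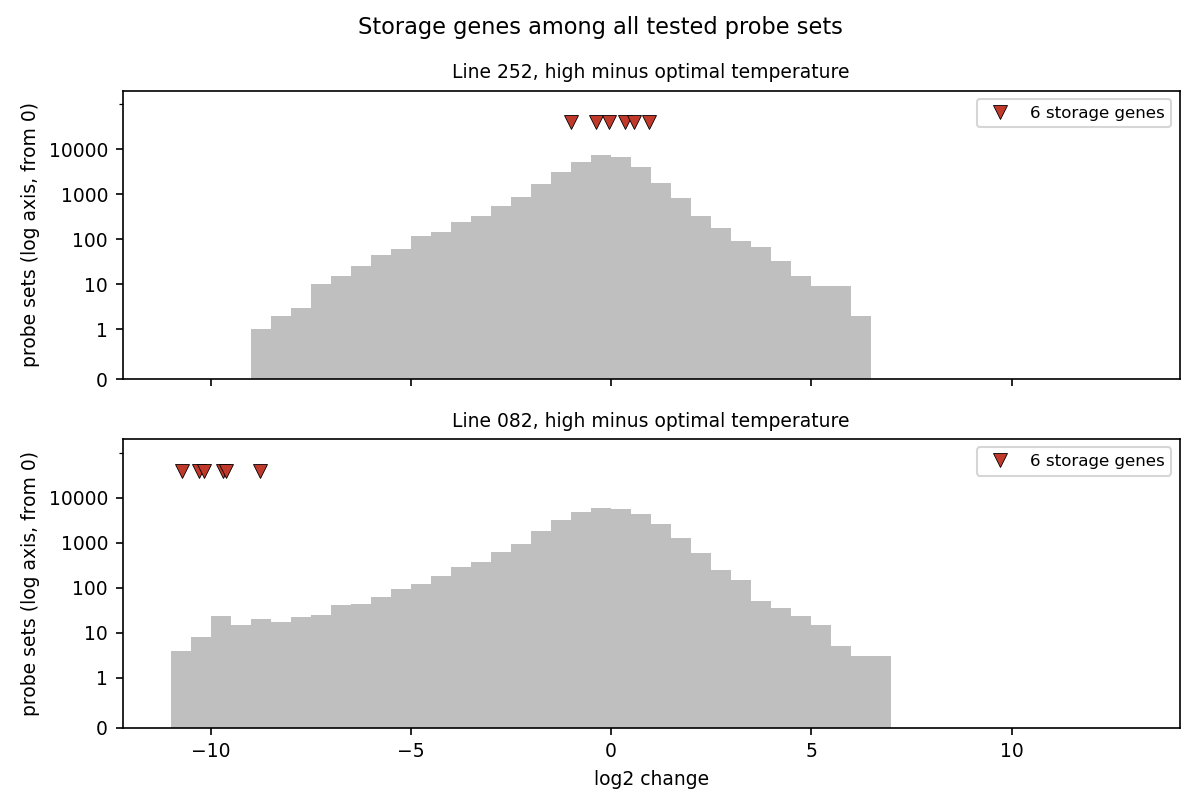
Number of probe sets (log axis from 0) by log2 change at high minus optimal temperature, above for line 252 and below for line 082, among 33610 probe sets tested; triangles mark the 6 storage genes. The triangles stand between −1.01 and 0.95 in line 252 and between −10.71 and −8.77 in line 082.

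The gene next to GLUB-5 on the chromosome in the RefSeq assembly ASM3414082v1 is another glutelin B gene, GLUB-4 (LOC4328969), and it was dim in all 4 groups. Its probe set had 30.7, 25.0 and 3.62 in line 252 at high temperature and 41.5, 43.5 and 15.04 in line 252 at optimal temperature. Line 082 had 18.2, 22.3 and 17.1 at high temperature and 16.2, 19.3 and 26.5 at optimal temperature. All 12 values were dim and the probe set did not pass the filter, so GLUB-4 was not tested. Glutelin genes are close copies of each other, and the suffix of the GLUA-1 probe set marks probes shared by several transcripts, so the share of single genes in these signals is uncertain.

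Seed allergen and embryo protein genes, which are expressed in the filling or maturing grain, were bright on the same 3 arrays as the storage genes. Of 12 listed, 5 had a probe set, and all 5 fell in line 082 at high temperature, where 21.9% of probe sets did, while in line 252 none was called by limma and none had an unadjusted p under 0.05, the lowest being 0.0759 for Emp1. RA14 (LOC4342723), a seed allergen of the alpha-amylase inhibitor family, had 114, 4.77 and 5.02 in line 252 at high temperature and 38.0, 30.8 and 5.87 in line 252 at optimal temperature. Its signals in line 082 were 67.4, 22.7 and 27.4 at high temperature and 23395, 30076 and 26821 at optimal temperature. It changed by −9.002 ± 0.61 in line 082 (adjusted p = 3.31e-07), and its relatives RA17 and RA5 by −9.65 ± 0.41 (7.32e-09) and −9.42 ± 0.40 (7.48e-09). The 5 had a median change of −9.002 in line 082 and 0.01 in line 252. RA17, RA5 and RA14 lay above the array median on 3, 4 and 5 of the 12 arrays, including the 3 of line 082 at optimal temperature. They passed the filter only through those 3 arrays, so their falls in line 082 are not independent of how they came to be tested.

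Emp1, an embryo protein of the late embryogenesis abundant class, R1C-Prx, a peroxiredoxin of embryo and aleurone, and VP1 served as markers of the embryo and aleurone, tissues other than the starchy endosperm. The sum of their 3 signals was 127 to 136 in line 252 at high temperature and 175 to 276 in line 252 at optimal temperature. Line 082 had sums of 127 to 191 at high temperature, against 18340 to 33473 at optimal temperature. R1C-Prx changed by −7.53 ± 0.30 (adjusted p = 3.63e-09) and Emp1 by −6.44 ± 0.26 (5.33e-09) in line 082, and both also count among the 5 genes above. The markers thus were high on the same 3 arrays as the storage genes, and their part in the storage gene results was not tested. Of 6 anther markers, none lay above the median on all 3 arrays of a group at high temperature and 1 did in each line at optimal temperature, and all 4 green tissue markers did in every group. Of the 3 anther markers tested, 1 fell in each line at high temperature, where 19.4% of probe sets fell in line 252 and 21.9% in line 082. CYP703A3 had −1.85 ± 0.40 in line 252 (limma, adjusted p = 0.00229), and EAT1 −2.29 ± 0.38 in line 082 (2.34e-04). At optimal temperature CYP703A3 was higher in line 252 (1.19 ± 0.40, adjusted p = 0.0277) and EAT1 lower (−2.42 ± 0.38, 2.34e-04). CYP703A3 and EAT1 lay above the array median on 3 and 4 of the 12 arrays. At optimal temperature, CYP703A3 passed the filter only through the arrays of line 252 and EAT1 only through those of line 082. Those are the groups in which they were high, so these calls are not independent of how the 2 genes came to be tested. EAT1 had 82.5, 259 and 215 on the 3 arrays with bright storage genes.

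The panicle and green tissue markers moved too. Of the 14 floral organ identity genes, 4 were called higher and 2 lower at high temperature in line 252, 6 higher and none lower in line 082, and 6 higher and none lower in line 252 than in line 082 at optimal temperature. The shares over all probe sets were 9.42% higher and 19.4% lower in line 252, 14.2% and 21.9% in line 082, and 15.3% and 12.1% between the lines at optimal temperature. MADS16, a stamen identity gene, changed by 1.87 ± 0.23 in line 252 (adjusted p = 4.12e-05) and 1.998 ± 0.23 in line 082 (1.78e-05). MADS4 fell in line 252 (−1.86 ± 0.36, adjusted p = 0.00105) and had 0.20 ± 0.36 in line 082 (adjusted p = 0.655). The difference of heat changes, 252 minus 082, was negative and called for 4 of the 14 and positive for none. Over all probe sets the shares were 12.3% negative and 11% positive. Of the 4 green tissue markers, 2 rose in line 252, PSAG (2.78 ± 0.33; 2.69e-05) and RCA (1.38 ± 0.13; 5.21e-06), and PSAG rose in line 082 (1.66 ± 0.33; 8.91e-04). PSAG was also lower in line 252 than in line 082 at optimal temperature (−1.12 ± 0.33; 0.0141). The part of these marker changes in the storage gene results was not tested.

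Regulators of endosperm storage genes were measured for 4 of 16 listed. NF-YB1 (LOC4330587), a subunit of an endosperm transcription factor complex, had 2.42, 9.37 and 5.73 in line 252 at high temperature and 343, 25.1 and 21.8 in line 252 at optimal temperature. It had 31.4, 8.79 and 4.65 in line 082 at high temperature and 5454, 6387 and 9514 at optimal temperature, so it too was brightest in the group with bright storage genes. In line 082 it fell by 7.90 on the log2 scale (SE 0.68, limma, adjusted p = 1.97e-06), and VP1, a B3-domain factor of seed maturation, fell by 5.28 (SE 0.58, adjusted p = 1.18e-05). NF-YB1 and VP1 each lay above the array median on 4 of the 12 arrays. Both passed the filter only through the arrays of line 082 at optimal temperature, the group from which they fell.

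MADS29, a MADS-box gene of the young seed, had another pattern, with 371, 269 and 1842 in line 252 at high temperature and 3943, 6939 and 5984 in line 252 at optimal temperature. In line 082 it had 1093, 481 and 315 at high temperature and 948, 1339 and 1302 at optimal temperature. It changed by −3.22 ± 0.59 in line 252 (adjusted p = 7.24e-04) and at optimal temperature was higher in line 252 than in line 082 by 2.19 ± 0.59 (0.00897). The bZIP gene RISBZ5 was lower in line 252 at optimal temperature (−2.28 ± 0.37; 3.38e-04). Over the 4 regulators 2 fell and none rose in each line at high temperature, MADS29 and NF-YB1 in line 252 and NF-YB1 and VP1 in line 082, with medians of −1.55 in line 252 and −3.18 in line 082, where 19.4% and 21.9% of all probe sets fell.

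Genes for folding, transport and cutting of storage proteins had signals well above the array medians in all groups. Of 23 listed, 9 were measured, and 6 fell in line 082 at high temperature and 4 in line 252, with none higher in either, where 21.9% and 19.4% of all probe sets fell. VPE1 (LOC4336523), the processing enzyme that cuts proglutelin, had 3146, 3180 and 4355 in line 252 at high temperature and 2134, 1698 and 1825 at optimal temperature, against 3202, 2872 and 3470 in line 082 at high temperature and 8633, 12925 and 12487 at optimal temperature. It fell by 1.81 in line 082 (SE 0.18; adjusted p = 5.06e-06) and had a change of 0.90 ± 0.18 in line 252 (0.00123), under the fold minimum. The difference, 2.71 ± 0.25, was called (1.63e-05).

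The protein disulfide isomerase genes PDIL1-4 and PDIL2-3 fell in line 082, with changes of −4.94 ± 0.27 (adjusted p = 6.57e-08) and −4.34 ± 0.27 (1.76e-07). In line 252 PDIL2-3 fell by 2.45 (SE 0.27; 1.65e-05), and PDIL1-4 had a change of −0.41 ± 0.27 (adjusted p = 0.244). BIP1, a chaperone of the endoplasmic reticulum, fell in both lines, with changes of −1.67 ± 0.25 in line 252 (adjusted p = 1.46e-04) and −2.39 ± 0.25 in line 082 (6.91e-06), and its difference of 0.72 ± 0.35 did not pass (adjusted p = 0.138). The other 2 that fell in both lines were PDIL1-1 and CRT1, a disulfide isomerase and a calreticulin. The list's median change was −0.41 in line 252 and −1.81 in line 082.

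Grain starch genes were measured for 7 of 13 listed, and 6 fell in line 082 at high temperature and 3 in line 252, where 21.9% and 19.4% of all probe sets fell. GBSS-I (LOC4340018), the granule-bound starch synthase that makes amylose, had 157, 49.5 and 33.6 in line 252 at high temperature and 11646, 216 and 76.6 in line 252 at optimal temperature. Line 082 had 3.98, 23.9 and 30.7 at high temperature and 30191, 36100 and 35516 at optimal temperature. Replicate 1 of line 252 at optimal temperature thus stood far above its group, as it did for the starch synthase SSII-3 (4885, against 92.2 and 73.9) and the sucrose synthase SUS3 (10516, against 1957 and 1267). Outside the starch genes the same array was also the highest of its group for several genes. These included NF-YB1 (343, against 25.1 and 21.8) and VP1 (169, against 38.7 and 8.07). PDIL1-4 (1895, against 869 and 833) and PSAG (1500, against 831 and 839) were others. The genes for which it was the lowest included MADS29 (3943, against 6939 and 5984). MADS6 (2435, against 5238 and 6789) and MADS7 (3593, against 6840 and 6108) were also among them. The storage genes on that array were low, at 22.1 for GLUA-1, 148 for GLUA-2, 9.89 for GLUA-3, 79.6 for GLUB-5, 8.50 for GLUD-1 and 2.84 for PROLM25.

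In line 082 GBSS-I changed by −9.99 ± 1.28 (adjusted p = 3.61e-05), SUS3 by −9.96 ± 0.76 (8.26e-07) and SSII-3 by −8.69 ± 1.13 (4.21e-05). SUS1, another sucrose synthase, fell in both lines, with −3.23 ± 0.34 in line 252 (1.16e-05) and −2.97 ± 0.34 in line 082 (1.6e-05). SUS3 and SSII-3 also fell in line 252. The 7 had medians of −2.93 in line 252 and −3.04 in line 082. Without replicate 1 of line 252 at optimal temperature, an alternative chosen after seeing the data, AGPS2 rose (1.03 ± 0.15; adjusted p = 2.17e-04) and the same 3 starch genes fell in line 252, SSII-3 by 1.66 (SE 0.46; 0.0129) where it had −3.53 ± 1.13 with all arrays. NF-YB1 then had −0.86 ± 0.38 in line 252 (adjusted p = 0.087), MADS29 remained the 1 regulator that fell there, and the counts in line 082 were the same. The median change in line 252 without that array was −0.83 for the starch genes, the value of GBSS-I, −0.63 for the regulators and −0.027 for the folding, transport and processing genes.

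The difference of heat changes was positive and called for 5 of 5 allergen and embryo genes, 2 of 4 regulators, 4 of 9 folding, transport and processing genes and 6 of 7 starch genes, and negative and called for none of them, where 11% of probe sets were positive and 12.3% negative. At optimal temperature the genes lower in line 252 than in line 082 numbered 5, 3, 4 and 6 in the same lists, with MADS29 the 1 gene that was higher, where 12.1% of probe sets were lower and 15.3% higher. At high temperature no gene of these 4 lists was called between the lines by limma, where 1.76% of probe sets were, and 2 had an unadjusted p under 0.05, SUS3 (0.0164) and RISBZ5 (0.0211).

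**Figure D5:**
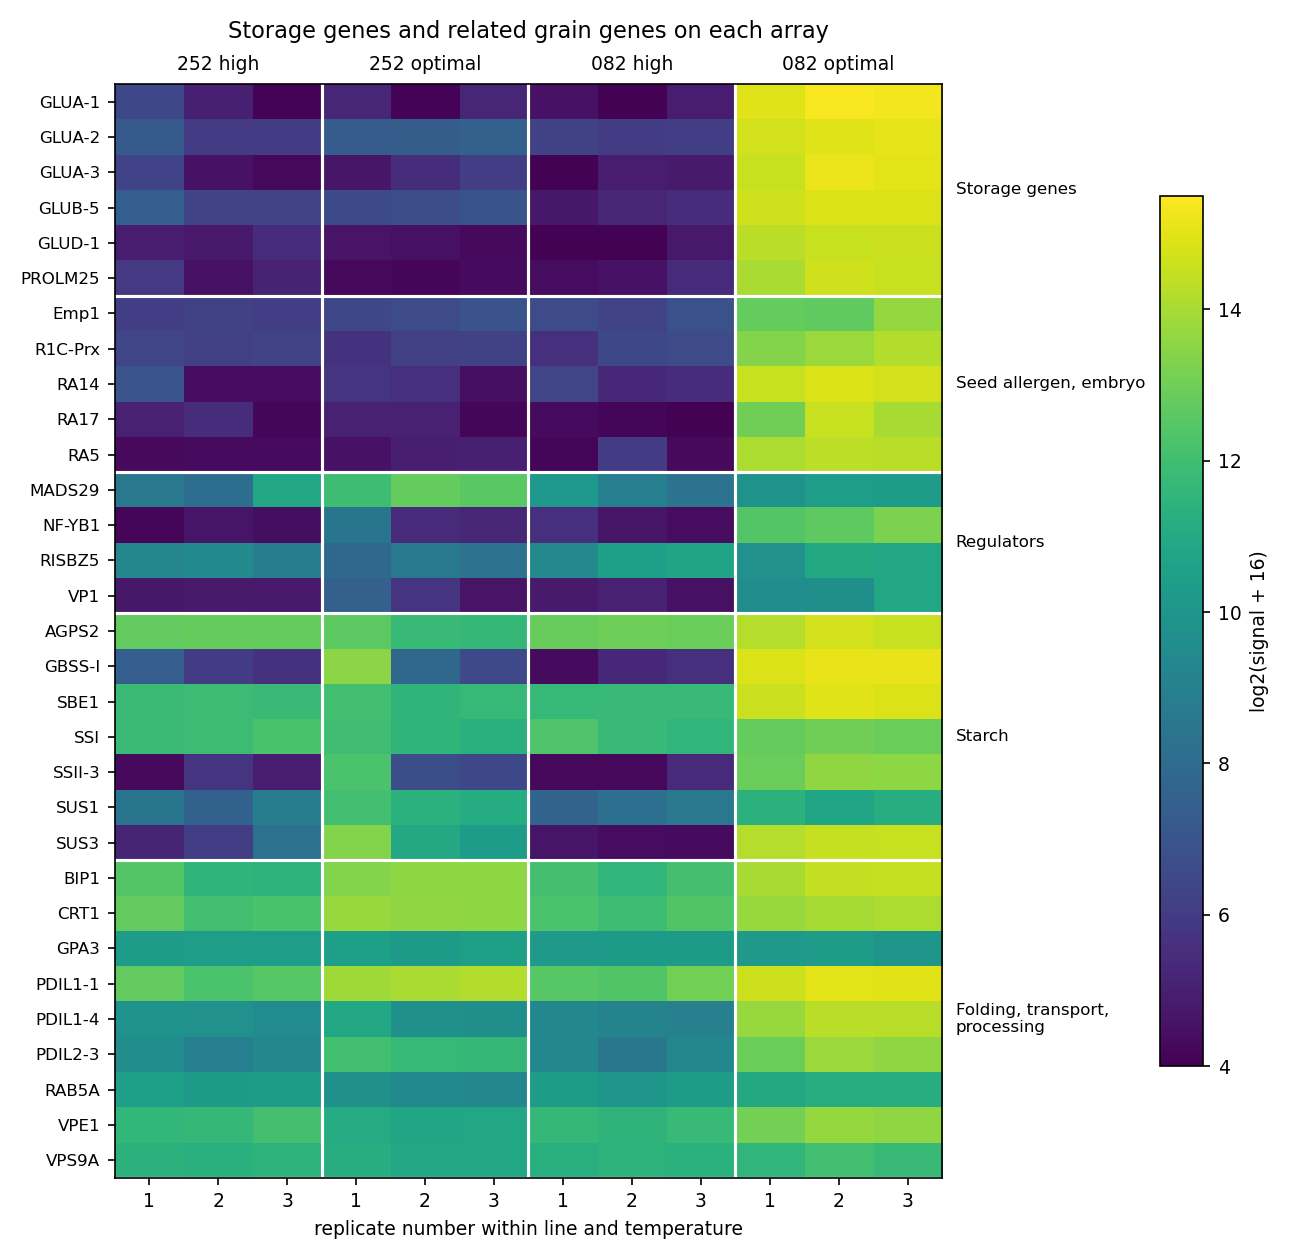
log2(signal + 16) as colour for the 6 storage genes and the measured genes of the related lists (rows) on the 12 arrays (columns, replicates 1 to 3 of each line and temperature). The storage, allergen and embryo genes are bright on the 3 arrays of line 082 at optimal temperature alone, and GBSS-I, SSII-3 and SUS3 are also bright on replicate 1 of line 252 at optimal temperature.

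The pattern of GLUA-1, the storage gene of highest mean signal, was compared with 2446 named genes by the Pearson correlation of log2(signal + 16) over the 12 arrays, as a description. The other 5 storage genes had 0.987 to 0.992 by their lead probe sets, and the second GLUA-2 probe set had −0.788. Outside the 6 the most alike were the starch branching enzyme gene SBE1 (0.991), RA17 (0.989), RA14 (0.986), R1C-Prx (0.986), the glyceraldehyde phosphate dehydrogenase gene GAPC3 (0.985), the ubiquitin-conjugating enzyme gene OsUBC5b (0.983), Emp1 (0.982) and the small GTPase gene OsRan1 (0.980). All arrays enter each value, and 3 of the 12 are far from the rest.

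The alike genes differed in how far they changed and in their level on the 9 other arrays. SBE1 had 3634, 3706 and 3400 in line 252 at high temperature and 4140, 2892 and 3326 at optimal temperature, against 3320, 3561 and 3459 in line 082 at high temperature and 24488, 31013 and 30224 at optimal temperature. Its change in line 082 was −3.04 ± 0.14 (adjusted p = 1.24e-08). GAPC3 averaged 5285 ± 38.2 in line 252 at high temperature and 4853 ± 924 in line 252 at optimal temperature. In line 082 it averaged 4222 ± 748 at high temperature, against 23446 ± 2487 on the optimal arrays. Both genes thus were well above the array medians on every array, whereas 5 of the 6 storage genes were below them on 3 or more of the arrays outside line 082 at optimal temperature.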

How the data were processed

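Each deposited value is 1 probe set's intensity on 1 array, on a linear scale. The submitters' processing notes name MAS5, and its version and any later step are not given in the sources used here. After a 2% trim, the deposited arrays had means of 500.06 to 500.08. Probe sets were named through the platform annotation and the RefSeq table of ASM3414082v1, with 22436 probe sets holding 1 gene and 95 several. After 187 control probe sets were left out, the 33610 probe sets brighter than the array's median on 3 or more of the 12 arrays were fitted on log2(signal + 16) in limma (version 3.58.1, R 4.3.3), with 4 group means, an intensity trend, 8 residual degrees of freedom and Benjamini-Hochberg adjustment over all of them. Errors are SE for changes and SD for signals. The members, the related lists, the markers and the alternatives were chosen with earlier results of these data known, so no count over them is independent support. Named genes were all probe sets of the 6 members, up to 4 genes a list with the largest called change, and the 8 genes most alike GLUA-1. Of 2452 genes with a name, 6 matched a list by a homonym and were left out. Same-numbered replicates were not paired by the labels: their deviations from the group means correlated at −0.203 to 0.126, above 0.1 in 2 of 18 pairs. Alternatives changed the scaling, the pseudocount (1, 64), the filter, the trend, the arrays and their weights, the groups fitted, the fold minimum and the probe sets of a gene. The fit was tested on simulated data. Promoter, protein and probe sequences and probe positions were not used here, and the planned motif search was not run. The labels call the replicates biological without naming plants. The p-values set differences of group means against the spread between these samples, estimated over all 4 groups together.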

Additional observations from a re-analysis of the deposited data

Results flagged for a closer look

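The heat changes of the lines, each high minus optimal temperature, differed by the test of the difference itself (252 minus 082, limma) for 7 of the 8 storage gene probe sets. Over all probe sets tested 23.3% were called, 11% positive and 12.3% negative. The differences on the log2 scale were 11.05 for GLUA-1, 7.77 for GLUA-2, 9.91 for GLUA-3, 9.63 for GLUB-5, 10.74 for GLUD-1 and 10.57 for PROLM25 by their lead probe sets, and 8.56 for the other PROLM25 probe set. All 7 rest on the 3 arrays of line 082 at optimal temperature, and 5 of them passed the filter on dim probe sets only through those arrays. The other GLUA-2 probe set had −0.44 and did not pass.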

How the results depend on the processing

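For heat in line 082, the difference of heat changes and the lines at optimal temperature, every single-gene value kept its direction and call under each alternative (147, 141 and 147 values). Counts of called genes there were 5 to 6 when 1 array was left out, since GLUD-1 dropped below the filter, and so was not tested, whenever an array of line 082 at optimal temperature was missing. With the mean over both probe sets, GLUA-2 had −3.85 for heat in line 082, 3.66 for the difference and −3.42 for the lines at optimal temperature. For heat in line 252 the count of 1 became 2 with a pseudocount of 1 and with no fold minimum, and 0 with a pseudocount of 64, with the compared groups alone and with the mean over all probe sets. It was 0 to 1 with 1 array left out, 0 without the 252 high replicate 3 or the 252 optimal replicate 3, and without replicate 2 at high temperature the called gene was PROLM25 in place of GLUA-2. For the lines at high temperature the count of 1 became 0 with a pseudocount of 64 and with the compared groups alone, and was 1 with any 1 array left out. Some directions turned. For heat in line 252 GLUB-5 had 0.50 with quantile normalization and 0.20 with centring on the 75th percentile. With 1 array left out it ran from −0.42 to 0.12, positive without replicate 2 or 3 at high or replicate 3 at optimal temperature. GLUA-1 ran from −0.31 to 0.89, negative without replicate 1 at high or replicate 2 at optimal temperature, and GLUA-3 from −1.02 to 0.022, positive without replicate 3 at high temperature. For the lines at high temperature GLUA-2 ran from −0.12 to 0.52 and GLUA-3 from −0.21 to 0.84, both negative without replicate 1 of line 252. The cause of these turns was not tested. The replicate block left the counts at 1 for heat in line 252, 6 for heat in line 082, 6 for the difference, 1 for the lines at high temperature and 6 for the lines at optimal temperature; 3 of 12 arrays were closest to their own number.

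Scaling moved the median change of all probe sets for heat in line 252 from −0.20 as deposited to 0.07 after quantile normalization and −0.58 on the hybridization spikes, and for heat in line 082 from −0.15 to 0.13 and −0.26. Signals below the array median limit the values outside line 082 at optimal temperature, except those of GLUA-2 and, in line 252, of GLUB-5: differences among dim signals depend on the added constant.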
